A study of Mus musculus with 9 samples.

Results

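Transcripts of 8 selenoproteins that handle redox chemistry or thyroid hormone were followed in mouse liver: the thioredoxin reductases Txnrd1, Txnrd2 and Txnrd3, the methionine sulfoxide reductase Msrb1, the small selenoproteins Selenow and Selenoh, the mitochondrial selenoprotein Selenoo, and the deiodinase Dio1. The genes were chosen by symbol, and all 8 were found among the 25781 genes of the table, each as 1 entry. The libraries came from liver tissue of Swiss mice aged 10 to 12 weeks, with 3 libraries per group. Control mice had no listed treatment, the β-CYP group received β-CYP at 40 mg/kg, and the selenite group was given Na2SeO3, sodium selenite, at 50 µg/kg in addition to β-CYP at 40 mg/kg. What β-CYP stands for is not spelled out in the labels, which also leave out sex and length of treatment. No group with selenite but without β-CYP was analysed here, so every selenite value is one in the presence of β-CYP. Whether each library is a mouse of its own is not stated, so that p-values reflect only how much these 9 libraries scatter, possibly for technical reasons.

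Selenoproteins carry selenocysteine, an amino acid with selenium in place of the sulfur of cysteine. It is inserted at a UGA codon, which otherwise ends translation, and the mRNA needs a hairpin in its untranslated end and dedicated factors for the insertion. When selenium is short, the UGA can be read as a stop and some selenoprotein mRNAs are then degraded by nonsense-mediated decay, so that mRNA levels of several members of the family are known to follow selenium supply. In the liver, thioredoxin reductases keep thioredoxins reduced with electrons from NADPH, and Dio1 removes iodine from thyroxine and from its inactive metabolites.

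The codon that makes these genes a family is shown first, since its place differs between them. The lines below give the coding strand around the in-frame TGA (the DNA form of UGA, in capitals) in 1 transcript of each gene from the GENCODE M21 transcript sequences, with up to 15 bases before it and up to 12 after it, ending no later than the stop codon.
Txnrd1: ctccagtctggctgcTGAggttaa
Txnrd2: actgtgactggttgcTGAggctaa
Txnrd3: actcagaaaggctgcTGAggctag
Selenoo: gaactctgtgtaacaTGAtcctcataa
Msrb1: ggacaatcaagattcTGAatatttagcagc
Dio1: tttggcagttgcaccTGAccttcatttctt
Selenoh: gagcattgtacgagcTGAcgcgtgtacggc
Selenow: gtgtattgtggagctTGAggctataagccc

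In the 3 thioredoxin reductases the TGA was the last codon but one, at codon 498 of 499 in Txnrd1, 526 of 527 in Txnrd2 and 614 of 615 in Txnrd3. Selenoo had it at codon 665 of 667. The other genes held it further from the end, at codon 95 of 116 in Msrb1, 126 of 257 in Dio1, 38 of 123 in Selenoh and 13 of 88 in Selenow. An in-frame TGA before the stop was present in 35 of the 16438 genes of the table that had a complete coding transcript, all 8 genes described here among them. An exon junction far enough downstream of a stop codon is a known mark for nonsense-mediated decay, whereas one close behind the stop generally is not. The last junction lay 303 bases after the TGA in Dio1, 243 in Selenow, 204 in Selenoh, 83 in Txnrd2 and 34 in Msrb1. In Txnrd1, Txnrd3 and Selenoo no junction followed it.

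Values are scaled counts, which are read counts divided by a factor of each library, and they were tested with limma as log2(scaled count + 1). Libraries held 28630269 to 36029560 reads. Control replicate 2 stood apart by a single rRNA-like transcript, AY036118, with 5.04% of its reads against at most 0.220% in any other library. The 8 hepatocyte markers (Alb, Apoa1, Apob, Cps1, Ass1, Cyp2e1, Hnf4a and Tat) all had reads in every group, with 2686003 to 3680454 reads per library in sum. Transcripts of other tissues differed between groups. Of 12 markers of the exocrine pancreas, 12 had reads in the selenite group, summing to 33928 to 35108 reads per library. Control libraries had 5 to 19 such reads and β-CYP libraries 7 to 27, with Prss1, Cpa1 and Pnlip at 0 in both groups. The 8 markers of skeletal muscle summed to 860 to 921 reads per selenite library. Other libraries had 13 to 27, with Ckm and Myh4 at 0. For the 9 spermatid markers the sum was 293 to 356 reads per control library and at most 8 in any other. The part of such tissue in the results was not tested. In bulk liver, fewer cells of a type and less RNA per cell cannot be told apart.

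Per kilobase of exon, Msrb1 was the most abundant of the 8 transcripts in control liver, at 7611 ± 134 scaled counts per kb (mean ± SD, n = 3). Selenow followed at 3269 ± 78.8 and Dio1 at 2068 ± 13.7. Selenoo (564 ± 1.56) and Txnrd1 (538 ± 12.4) lay close together, and their order changed in the other groups, with Txnrd1 at 617 ± 24.9 and Selenoo at 510 ± 35.5 in β-CYP. The control SDs of Selenoo and Dio1 are 0.276% and 0.660% of the mean. Counting error alone is 2.23% and 1.61%, so these SDs are smaller than counting gives. Txnrd2, the mitochondrial thioredoxin reductase, was at 163 ± 6.07. Selenoh (78.2 ± 12.6) and Txnrd3 (62.2 ± 3.72) were lowest. Their ranges did not overlap in control, but they did in β-CYP and in selenite, so that the order of these 2 is not settled. Averaged over the 9 libraries, Msrb1 ranked above 98.7% of the 20145 genes tested on this scale and Txnrd3 above 58.3%.

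**Figure D1:**
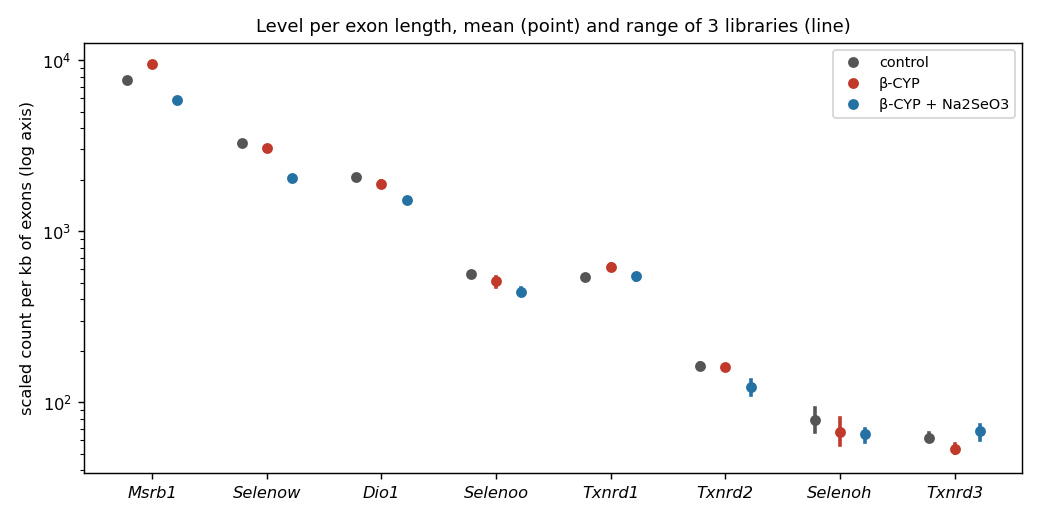
Scaled count per kilobase of exon (log axis) for the 8 genes in control, β-CYP and β-CYP with Na2SeO3, as the mean (point) and the range of 3 libraries (line). Msrb1, Selenow and Dio1 are highest in every group, while Selenoh and Txnrd3 are lowest.

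Comparing β-CYP with control shows what changed with β-CYP alone. Of the 8, 2 rose (Msrb1 and Txnrd1) and 1 fell (Dio1), against 7.72% of all genes tested that rose and 8.58% that fell. With equal totals, and likewise without the intensity trend, only Msrb1 of the 8 passed. The libraries of the 2 groups did not overlap for 6 of the 8, 2 higher and 4 lower in β-CYP, where 31.6% of all genes did not overlap. The median log2 change was -0.11 over the 8 genes and -0.0013 over all genes.

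Comparing selenite with β-CYP shows what differed when selenite was added. Here 6 of the 8 fell (Msrb1, Selenow, Txnrd2, Dio1, Selenoo and Txnrd1) and none rose, against 12.3% of all genes that fell and 11.6% that rose (23.9% together). The 6 were lower in all 3 selenite libraries than in any β-CYP library. Txnrd3 was higher in all 3, although it did not pass, and 37.8% of all genes had groups that did not overlap. The median log2 change was -0.25 over the 8 genes and 0.017 over all genes. With libraries scaled to equal totals, 3 of the 8 fell (Msrb1, Selenow and Txnrd2) and Txnrd3 rose. That scaling shifts the median log2 change of all genes by 0.12 and turns the split of all calls from 2337 higher and 2468 lower into 3238 higher and 1335 lower.

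Against control, the selenite group had 5 of the 8 genes lower (Selenow, Dio1, Txnrd2, Msrb1 and Selenoo) and none higher, where 14.5% of all genes fell, 14.4% rose and 28.9% passed in all. The libraries of the 2 groups did not overlap for these 5, all lower in selenite, as for 41.8% of all genes (20.4% lower). The median log2 change was -0.37 over the 8 genes and 0.027 over all genes. The 5 also fell with equal totals, where the split of all calls was 3979 higher and 1764 lower instead of 2908 and 2915, with a shift of the median of all genes of 0.13. The comparisons with β-CYP share the β-CYP libraries, and those with control share the control libraries, so they are not independent of each other.

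**Figure D2:**
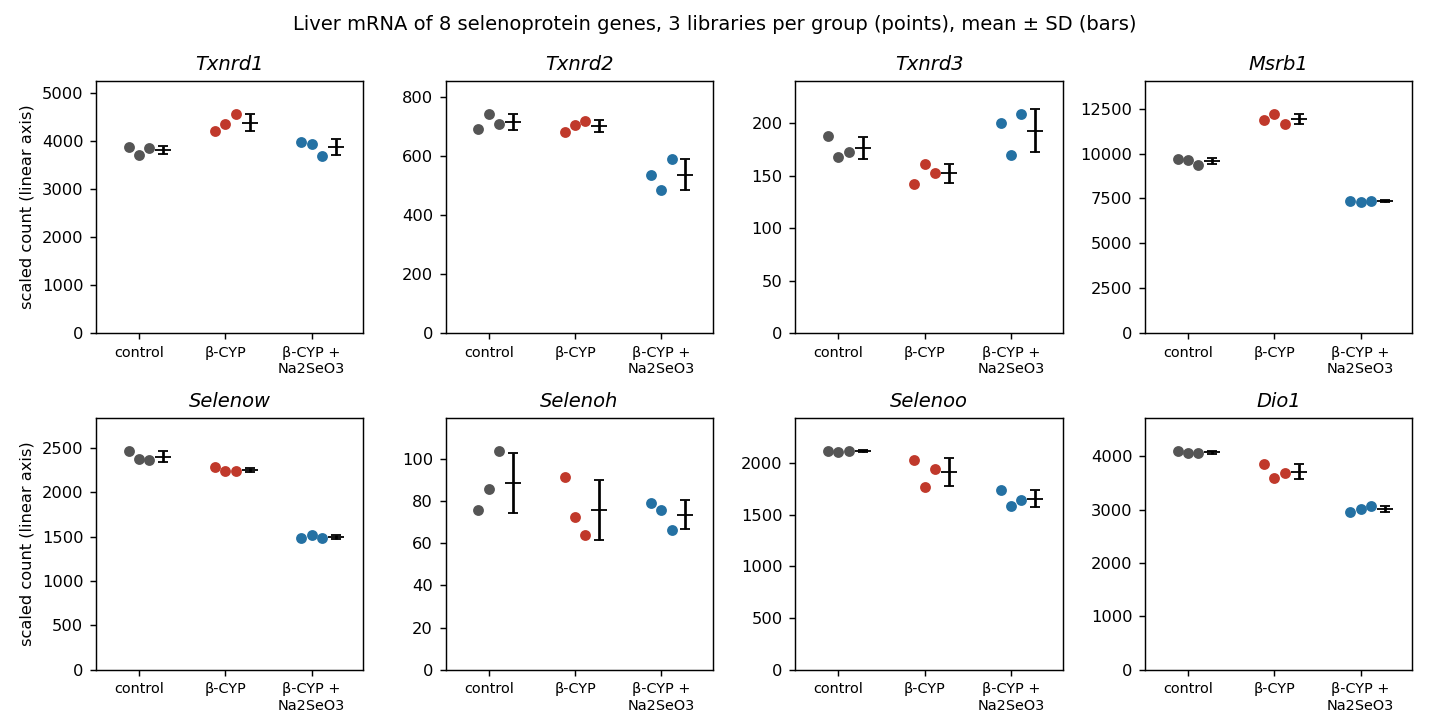
Scaled count (linear axis from 0) of each gene in the 9 libraries, with 3 points per group and the mean ± SD beside them. Msrb1 is high in the β-CYP group and low in the selenite group, Selenow is low in the selenite group alone, and the Selenoh points of all groups overlap.

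Txnrd1 encodes the cytosolic thioredoxin reductase, a known target of the oxidant-sensing transcription factor NRF2. It had 3877, 3710.2 and 3840.2 scaled counts in control, 4207, 4342 and 4557 in β-CYP, and 3975, 3940.5 and 3684 in selenite. The β-CYP libraries were highest, with no overlap with either other group, while control and selenite overlapped. The rise in β-CYP was 14.6% (log2 change 0.20 ± 0.042, SE, limma adjusted p = 0.0106). It did not pass with equal totals (adjusted p = 0.0822) or without the intensity trend (0.0847), in a range of 0.00644 to 0.0847 over the alternatives. Txnrd1 fell by 11.5% from β-CYP to selenite (-0.18 ± 0.042, adjusted p = 0.0134). That call was lost without β-CYP replicate 3 (0.0501), under quantile normalization (0.186), with equal totals (0.673) and without the trend (0.0895). Against control, the selenite value differed by 1.47%, with a 95% interval of -5.00% to 8.37% (adjusted p = 0.762). Quantile normalization called it higher there (log2 change 0.12, adjusted p = 0.0454).

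Txnrd2, the reductase of mitochondria, had 691 (replicate 1), 744 and 711 scaled counts in control, 681, 707 and 719 in β-CYP, and 538, 484 and 592 in selenite. Control and β-CYP overlapped, and every selenite library was below them. The change from control to β-CYP was -0.026 ± 0.077 (adjusted p = 0.883). It fell by 23.6% from β-CYP to selenite (-0.39 ± 0.077, adjusted p = 0.00482), a call that held in all 20 alternatives (adjusted p 0.00235 to 0.0416). Against control it fell by 25.0% (-0.41 ± 0.077, adjusted p = 0.00269).

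Txnrd3 is a thioredoxin and glutathione reductase best known from the testis. It had 188, 168 and 173 scaled counts in control, 142, 161 and 153 in β-CYP, and 199.8, 169.7 and 209 in selenite. Both other groups were above β-CYP in all libraries and overlapped with each other. Its log2 change from β-CYP to selenite was 0.34 ± 0.11 (adjusted p = 0.0628), which passed with a minimum mean of 10 scaled counts (0.0455), with equal totals (0.0301) and without selenite replicate 2 (0.0317). From control to β-CYP it was -0.21 ± 0.11 (adjusted p = 0.275). Each control library held 293 to 356 reads of the 9 spermatid markers together. In β-CYP libraries this sum was 3 to 8, and in selenite libraries at most 5, with Prm1, Prm2 and Tnp1 at 0. The part of these transcripts in the Txnrd3 values was not tested.

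**Figure D3:**
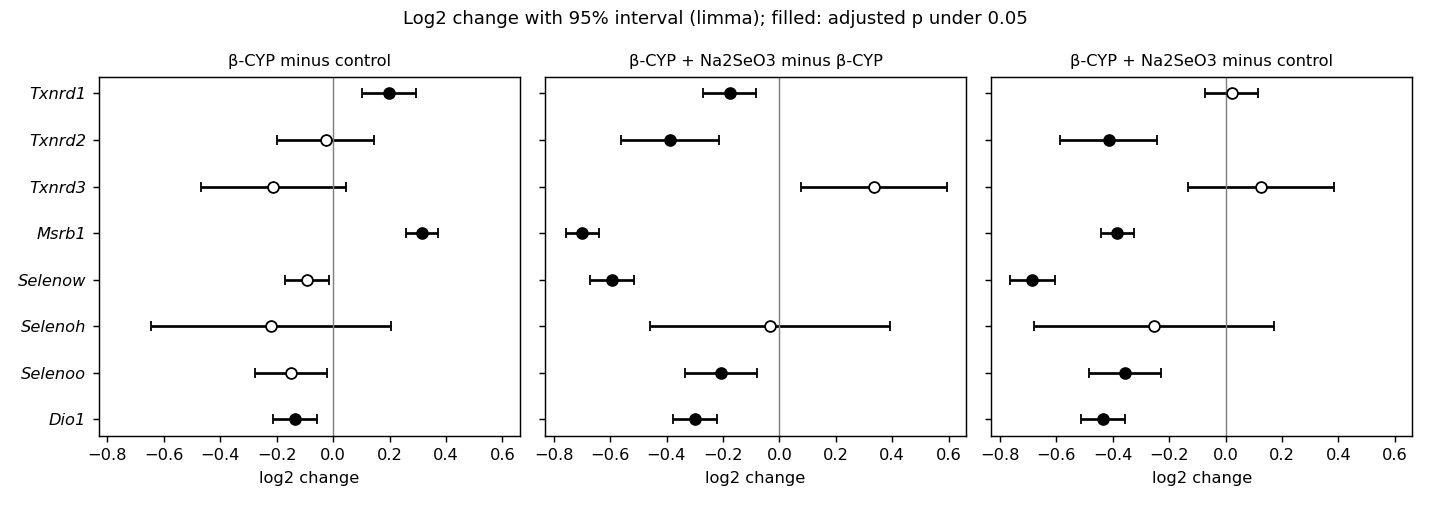
Log2 change of the 8 genes in the 3 comparisons, with the 95% interval from limma; filled points have an adjusted p under 0.05. In the comparison of selenite with β-CYP, 6 filled points lie below 0, and Txnrd3 lies above 0 as an open point.

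Msrb1 reduces the R form of oxidized methionine in the cytosol and nucleus. It had 9685, 9658 and 9381 scaled counts in control, 11878, 12207 and 11654 in β-CYP, and 7370.1, 7273 and 7375 in selenite. The 3 groups were fully separate, with β-CYP highest and selenite lowest. It rose by 24.4% in β-CYP (0.32 ± 0.026, adjusted p = 2.33e-05) and fell by 38.4% from β-CYP to selenite (log2 change -0.70 ± 0.026, adjusted p = 5.13e-08). Against control it fell by 23.3% in selenite (-0.38 ± 0.026, adjusted p = 2.97e-06). All 3 calls held in all 20 alternatives each.

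Selenow and Selenoh are small proteins with a thioredoxin-like fold, whose selenocysteine lies in the first part of the chain. Selenow, abundant in muscle and brain, had 2473, 2376 and 2369 scaled counts in control, 2283, 2240.2 and 2245 in β-CYP, and 1488, 1519 and 1481 in selenite. The selenite libraries were far below the rest, and β-CYP lay slightly below control without overlap. Selenow fell by 33.7% from β-CYP to selenite (log2 change -0.59 ± 0.035, adjusted p = 1.42e-06). It fell by 37.8% from control to selenite (-0.68 ± 0.035, adjusted p = 3.98e-07). Both held in all 20 alternatives each. The difference between β-CYP and control, -0.092 ± 0.035, did not pass (adjusted p = 0.115). The muscle markers were higher in the selenite libraries, in which Selenow was lowest. The part of muscle transcripts in the Selenow values was not tested.

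Selenoh, a nucleolar protein that binds DNA, had 75.9, 85.6 and 104 scaled counts in control, 91.5, 72.5 and 63.8 in β-CYP, and 79.2, 75.6 and 66.1 in selenite. All groups overlapped, and at this depth counting error alone is 10.9% to 11.5% of the mean. The 95% interval of its change from β-CYP to selenite ran from -27.2% to 31.4% (adjusted p = 0.947), which covers falls as large as that of Dio1.

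Selenoo is a mitochondrial protein of the kinase fold that transfers AMP to other proteins. It had 2116, 2107 and 2118 scaled counts in control, 2026, 1765 and 1939 in β-CYP, and 1741, 1579 and 1636 in selenite. The groups stepped down without overlap, although the lowest β-CYP library and the highest selenite library were close. From control to selenite it fell by 21.9% (-0.36 ± 0.057, adjusted p = 0.00108), a call that held in all 20 alternatives. The step from β-CYP, where it fell by 13.4%, was less firm (-0.21 ± 0.057, adjusted p = 0.0244). This call was lost without any of β-CYP replicates 1 and 3 and selenite replicates 2 and 3 (adjusted p 0.0726 to 0.0875). It was also lost under quantile normalization (0.0595), with equal totals (0.492), with only the 2 groups in the fit (0.0787) and without the trend (0.0885). The change from control to β-CYP, -0.15 ± 0.057, did not pass (adjusted p = 0.119). Selenoo shares 998 of 3744 exon bases with Tubgcp6 on the opposite strand, and no source used here gives the strand setting of the counting. Tubgcp6, a centrosomal protein gene, had a log2 change of 0.15 ± 0.11 (adjusted p = 0.391) from β-CYP to selenite.

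Dio1, the deiodinase of liver and kidney, had 4104, 4066 and 4052 scaled counts in control, 3856, 3591 and 3683 in β-CYP, and 2951, 3015 and 3071 in selenite. The groups were separate, in the order control, β-CYP, selenite. Dio1 fell by 18.8% from β-CYP to selenite (-0.30 ± 0.035, adjusted p = 1.60e-04). Equal totals gave -0.17 with an adjusted p of 0.0538, and the other 19 alternatives kept the call. Against control it fell by 26.1% (-0.44 ± 0.035, adjusted p = 9.23e-06), a call kept in all 20 alternatives. The smaller difference between β-CYP and control (-0.14 ± 0.035, adjusted p = 0.0247) was lost in 8 of 20 alternatives (adjusted p 0.0521 to 0.204). Over all 20 the range was 0.0152 to 0.204. The 8 included leaving out any control library (0.0533 to 0.0708) or β-CYP replicate 2 or 3 (0.0860 and 0.0717), and the replicate block (0.0521).

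The place of the TGA codon can be set beside these changes as a description. From β-CYP to selenite, where 12.3% of all genes fell, 4 of the 5 genes with any exon junction after the TGA fell. Their log2 changes were -0.70 to -0.032 over the 5. Msrb1, at the low end of that range, is the gene whose last junction lies closest behind the TGA, at 34 bases. A junction so close is generally no mark for decay, so this split does not sort the genes by that mark. The part of decay in these changes was not tested. Of the 3 genes without any junction after the TGA, 2 fell, with changes of -0.21 to 0.34. All 3 thioredoxin reductases end in TGA, a glycine codon and a stop; Txnrd1 and Txnrd2 fell, and Txnrd3 was at 0.34 without passing.

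On the deposited scaling, the hepatocyte markers moved with the fall in the selenite group. All 8 of them fell from β-CYP to selenite, with a median log2 change of -0.38, against 12.3% of all genes that fell. They ranged from Apoa1 at -0.090 ± 0.023 and Alb at -0.38 ± 0.019 to the tyrosine aminotransferase Tat at -1.40 ± 0.018. Equal totals raise the median of all genes by 0.12 in this comparison, which is more than the fall of Apoa1. Changes of the marker lists under other scalings are not given here. Against control, 6 of the 8 fell and 1 rose on the deposited scaling, with a median of -0.33, where 14.5% of all genes fell and 14.4% rose. As a share of all reads, Alb was at 6.50%, 6.01% and 6.63% in control and 6.37% to 6.44% in selenite. These groups overlapped only through control replicate 2, in which AY036118 took 5.04% of the reads. In β-CYP the Alb share was 7.44% to 7.72%. For the next 4 lists, the shares of all genes were 11.6% higher and 12.3% lower from β-CYP to selenite. From control to selenite they were 14.4% and 14.5%. Macrophage markers rose in selenite on the deposited scaling, 6 of 8 from β-CYP (median 0.21) and 5 of 8 from control (median 0.17). Of the stellate cell markers, 3 of 7 rose and 1 fell from β-CYP (median 0.32), and 5 rose from control (median 0.41). Neutrophil markers rose for 1 of 8 from β-CYP (median 0.46), near the share of all genes, and for 6 of 8 from control (median 2.81). Erythroid markers fell for 2 of 7 from β-CYP (median -0.14) and for 5 of 7 from control (median -0.39). Between control and β-CYP, where Msrb1 and Txnrd1 rose, 7.72% of all genes rose and 8.58% fell. There 3 hepatocyte markers rose and 3 fell (median 0.034), and 4 of 8 neutrophil markers rose (median 1.63). Of the erythroid markers 4 of 7 fell (median -0.21), and of the macrophage markers 2 of 8 (median -0.082). The cholangiocyte markers summed to 1972 to 2401 reads in control libraries and 6356 to 7285 in β-CYP, although 1 of 6 passed. The part of these changes in the values of the selenoproteins was not tested.

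**Figure D4:**
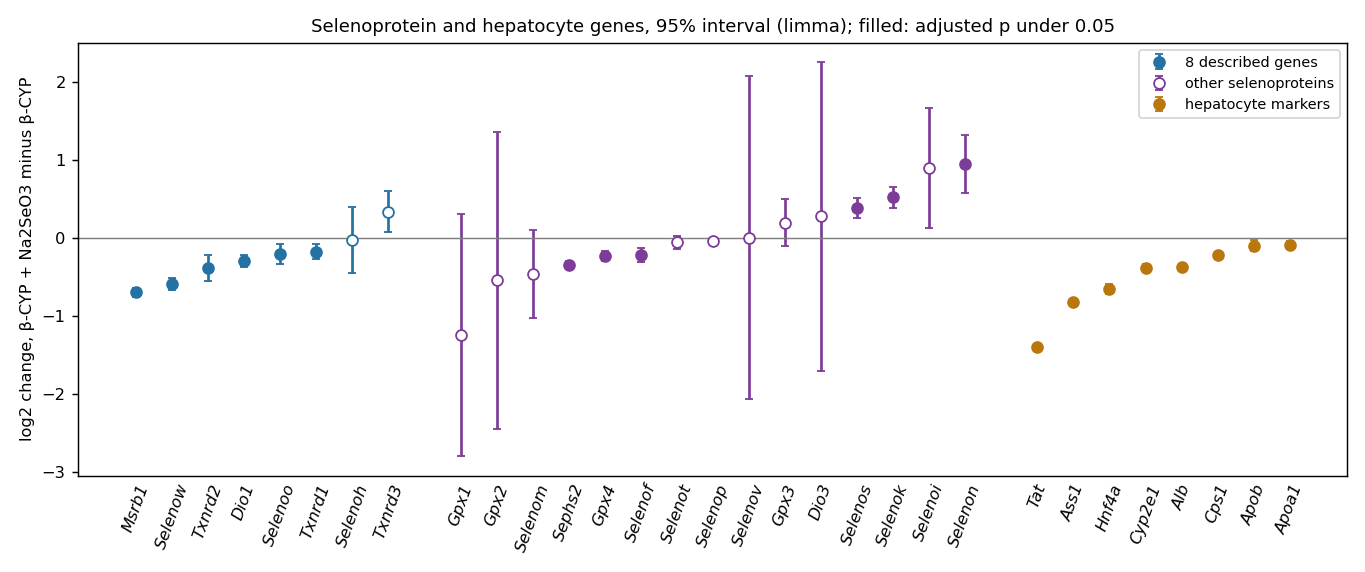
Log2 change from β-CYP to β-CYP with Na2SeO3, with the 95% interval from limma, for the 8 genes, the other 15 selenoprotein genes in the table and 8 hepatocyte markers; filled points have an adjusted p under 0.05. Filled points lie on both sides of 0 among the other selenoproteins, whereas all 8 hepatocyte markers lie below 0. All values are on the deposited scaling.

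Among the other selenoprotein genes, 15 of 16 were in the table and tested, and Dio2 was not analysed here. Counts and medians of this list and of those that follow are on the deposited scaling, and other scalings were not run for them. Of all genes tested, 11.6% rose and 12.3% fell from β-CYP to selenite. From control to selenite the shares were 14.4% and 14.5%, and from control to β-CYP 7.72% and 8.58%. In the comparison of selenite with β-CYP, 3 rose and 3 fell, with a median log2 change of -0.040. Selenon, Selenok and Selenos, each coding for a membrane protein of the endoplasmic reticulum, rose by 0.94 ± 0.17 (limma adjusted p = 0.00241), 0.52 ± 0.059 and 0.38 ± 0.056 on the log2 scale. Sephs2, which makes the selenium donor for selenocysteine, fell (-0.35 ± 0.021, adjusted p = 1.58e-06), as did the lipid hydroperoxidase Gpx4 (-0.24 ± 0.029) and Selenof (-0.22 ± 0.040). The plasma selenium carrier Selenop was at -0.040 ± 0.018 (adjusted p = 0.146). Gpx1, the cytosolic glutathione peroxidase, did not pass (-1.25 ± 0.69, adjusted p = 0.245), and its scaled counts of 35223, 3912 and 34018 in selenite show that replicate 2 stood apart. Against control, 4 rose and 4 fell in selenite, with Selenon at 1.27 ± 0.17, Selenok at 0.47 ± 0.059, the plasma peroxidase Gpx3 at 0.42 ± 0.13 and Sephs2 at -0.26 ± 0.021. With β-CYP alone, 1 rose (Sephs2, 0.096 ± 0.021) and 1 fell (Selenos, -0.22 ± 0.056). Together the 8 genes described here held 8.25% to 8.42% of the reads of all selenoprotein genes in control and 9.12% to 9.48% in β-CYP. In selenite the share was 7.28% to 8.42%, and its highest value was that of replicate 2 with the low Gpx1.

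Of 13 genes for making and inserting selenocysteine, none rose and 1 fell in β-CYP against control, near the 8.58% of all genes that fell. This was Pstk, the kinase of the selenocysteine tRNA (-0.72 ± 0.15, adjusted p = 0.0101). With selenite added, 2 rose and 2 fell against β-CYP, where 11.6% of all genes rose and 12.3% fell. Secisbp2l, a relative of the hairpin-binding protein, rose (0.28 ± 0.045), as did the RNA helicase Eif4a3 (0.23 ± 0.052). The ribosomal protein gene Rpl30 fell (-0.26 ± 0.052), as did Scly, which frees selenium from selenocysteine (-0.18 ± 0.039). Against control, 2 rose and 3 fell in selenite, where 14.4% of all genes rose and 14.5% fell. The 3 included the elongation factor Eefsec at -0.47 ± 0.15 (limma adjusted p = 0.0368) and Pstk at -0.51 ± 0.15.

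In the thioredoxin and glutaredoxin system, 4 of 21 genes rose and 7 fell from β-CYP to selenite, with a median log2 change of -0.19. Of all genes tested, 11.6% rose and 12.3% fell in that comparison. Thioredoxin itself, Txn1, the substrate of Txnrd1, had 4281, 4155 and 3856 scaled counts in control, 3923, 3775 and 3873 in β-CYP, and 3367, 3185 and 3035 in selenite. The selenite libraries were the lowest, and Txn1 fell by 0.27 ± 0.049 on the log2 scale (adjusted p = 0.00293). Its mitochondrial counterpart Txn2 was at 0.16 ± 0.090 (adjusted p = 0.243), while the partner enzyme Txnrd2 fell. Srxn1, the sulfiredoxin that restores oxidized peroxiredoxins, rose from 898, 925 and 869.8 to 1911, 1593 and 2150.3 scaled counts (1.06 ± 0.13, adjusted p = 2.5e-04). The glutaredoxin Glrx rose by 0.34 ± 0.039. The peroxiredoxin Prdx6 fell (-0.57 ± 0.089), and the ribonucleotide reductase subunit Rrm2 fell by 1.23 ± 0.30 on the log2 scale. In β-CYP, 2 of the 21 rose and 1 fell against control, where 7.72% of all genes rose and 8.58% fell. They were the peroxiredoxins Prdx2 (0.20 ± 0.038) and, downward, Prdx3 (-0.17 ± 0.043), and Txnip. Txnip, the inhibitor of thioredoxin, rose (0.60 ± 0.16, adjusted p = 0.0343), and its scaled counts of 1871, 1157 and 1228 in selenite spread more widely than the 1879, 1929.8 and 1997 of β-CYP. Against control, 4 rose and 6 fell in selenite, where 14.4% of all genes rose and 14.5% fell.

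Methionine genes other than Msrb1 gave 2 of 12 higher and 6 lower from β-CYP to selenite (median -0.43), and 2 higher and 8 lower against control (median -0.33). The shares of all genes were 11.6% higher and 12.3% lower from β-CYP, and 14.4% and 14.5% against control. Cystathionine synthase, Cbs, had 15104, 14724 and 14715 scaled counts in β-CYP and 6327, 6515 and 6518 in selenite, a log2 change of -1.20 ± 0.028 (adjusted p = 2.84e-09). Ahcy, which clears S-adenosylhomocysteine, fell by 0.73 ± 0.019 on the log2 scale, Cth by 0.69 ± 0.11, and the S-adenosylmethionine synthase of liver, Mat1a, by 0.66 ± 0.015. The other reductases of the R form, named here after their values were seen, were Msrb3, which rose (0.63 ± 0.11, adjusted p = 0.00275), and Msrb2, at -0.074 ± 0.11. Msra, which reduces the S form, had 4561 scaled counts in β-CYP replicate 3 against 1859 and 2005 in the others, and did not pass (-0.47 ± 0.38, adjusted p = 0.450). From control to β-CYP, 7.72% of all genes rose and 8.58% fell. Of the 12, 2 rose there, Mat1a by 0.43 ± 0.015 and the betaine methyltransferase Bhmt by 0.27 ± 0.015. Another 4 fell: Cth (-0.44 ± 0.11), the methionine synthase Mtr (-0.34 ± 0.090), the glycine methyltransferase Gnmt (-0.30 ± 0.019) and Ahcy (-0.14 ± 0.019).

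Genes of thyroid hormone transport and receptors were 2 up and 7 down of 14 from β-CYP to selenite (median -0.27), and 2 up and 8 down against control (median -0.22). All genes gave 11.6% up and 12.3% down from β-CYP, and 14.4% up and 14.5% down against control. The organic anion transporters Slco1a4 (-1.35 ± 0.10) and Slco1a1 (-0.60 ± 0.032) fell, and Crym, a cytosolic thyroid hormone binder, rose (1.54 ± 0.29, adjusted p = 0.00339). Serpina7, the thyroxine-binding globulin, had 199, 180.2 and 186 scaled counts in control, 594, 630.0 and 749.6 in β-CYP, and 1526, 1374 and 1484 in selenite. It rose at both steps, where Dio1 fell, by 1.79 ± 0.092 and 1.16 ± 0.092 on the log2 scale. The receptors, named after their values were seen, did not pass from β-CYP to selenite, with Thra at -0.18 ± 0.10 (adjusted p = 0.251) and Thrb at -0.42 ± 0.26 (adjusted p = 0.305). In β-CYP, 3 of the 14 rose and 4 fell against control, where 7.72% of all genes rose and 8.58% fell. Of the other deiodinases, Dio3, which inactivates thyroid hormone, had at most 3.70 scaled counts in any library and did not pass.

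Of 12 liver genes that respond to thyroid hormone, 1 rose and 6 fell from β-CYP to selenite (median -0.11), and 2 rose and 6 fell from control to β-CYP (median -0.40). Among all genes, 11.6% rose and 12.3% fell from β-CYP to selenite, and 7.72% and 8.58% from control to β-CYP. Thrsp, a lipogenic regulator named for its response to the hormone, had 13593, 13709.6 and 13701 scaled counts in control, 10655, 10566 and 10625 in β-CYP, and 6230.2, 6148 and 5964 in selenite. Like Dio1, it stepped down without overlap, with log2 changes of -0.36 ± 0.024 and -0.80 ± 0.024. Of the gluconeogenic genes, G6pc (-2.15 ± 0.053 and -0.92 ± 0.053) also fell at both steps, and Pck1 by 0.72 ± 0.018 on the log2 scale at the second. Cyp7a1, which starts bile acid synthesis from cholesterol, fell in β-CYP (-2.45 ± 0.067) and was at -0.057 ± 0.067 from β-CYP to selenite. The malic enzyme Me1 fell in β-CYP (-0.78 ± 0.16) and was at 0.42 ± 0.16 from β-CYP to selenite (adjusted p = 0.096). Klf9 fell by 0.43 ± 0.041 on the log2 scale at that second step. Against control, 1 rose and 7 fell in selenite, where 14.4% of all genes rose and 14.5% fell.

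NRF2 and its targets other than Txnrd1 and Srxn1 gave 1 of 18 higher and 2 lower in β-CYP against control, near the shares of all genes (7.72% higher and 8.58% lower). Hmox1, the heme oxygenase, rose (0.89 ± 0.071). The epoxide hydrolase Ephx1 (-0.16 ± 0.028) and the transketolase Tkt (-0.27 ± 0.043) fell. Nqo1, a classical target, was at -0.20 ± 0.26 (limma adjusted p = 0.693). From β-CYP to selenite, 11.6% of all genes rose and 12.3% fell. With selenite added, none rose and 4 fell against β-CYP: Ephx1 (-0.45 ± 0.028, adjusted p = 2.19e-06), the glutathione transferase Gsta4 (-0.36 ± 0.045), the transaldolase Taldo1 (-0.21 ± 0.060) and Gclc of glutathione synthesis (-0.15 ± 0.030). Against control, 3 rose and 5 fell in selenite, where 14.4% of all genes rose and 14.5% fell.

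Promoter sequence was looked at for Txnrd1 because of that pathway. Windows from 250 bases before to 50 after a start site, from RefSeq on GRCm38.p6, were found for all 8 genes, 10 windows in all. The core letters of the antioxidant response element, TGACNNNGC, read on either strand, were in 1 of the 10, and in 12.4% of the 32851 windows of all genes. It is 1 of 3 windows of Txnrd1, chr10:82858956-82859255 on the plus strand, with the match on the opposite strand in capitals, beginning at position -92 from the start site. A match is a description of letters and not a measured site.
Txnrd1 window: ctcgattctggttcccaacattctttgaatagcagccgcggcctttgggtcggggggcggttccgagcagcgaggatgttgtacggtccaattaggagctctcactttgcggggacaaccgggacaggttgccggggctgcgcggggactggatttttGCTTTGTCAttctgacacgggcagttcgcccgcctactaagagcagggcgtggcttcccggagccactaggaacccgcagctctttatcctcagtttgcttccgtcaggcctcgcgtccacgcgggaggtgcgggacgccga

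The genes whose levels across the 9 libraries were most like each member's, among 10520 genes with a mean of at least 100 scaled counts, are given as a description, since the libraries share 3 groups. Closest to Selenow were Itm2b and Gldc (Pearson's r of 0.998 for both), and closest to Msrb1 were Enpp3 (0.997) and Ei24 (0.995). Dio1 was most like the cation exporter Slc47a1 (0.996) and the steroid reductase Akr1d1 (0.995). Txnrd1 was closest to the copper importer Slc31a1 (0.983) and to Cul1 (0.970). Txnrd2 went with Macrod1 (0.985) and Fras1 (0.977), Selenoo with Cth and Glrx5 (both 0.982), and Txnrd3 with Smurf1 (0.965) and Fhod1 (0.943). For Selenoh the closest were Gm17018 (0.960) and Uros (0.856).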

How the data were processed

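RNA-seq of 9 liver libraries in 3 groups of 3 was analysed from 1 table of log2 values. The log2 values deposited by the authors equal log2(read count divided by a factor of the library, plus 1): undoing this gave whole reads, within 0.02, for 100% of values, and the factors match median-of-ratios factors. HISAT, Cufflinks and mm9 are named, without versions or roles, per the submitters' processing notes. No source used here gives the counting tool, annotation or strand setting.

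The values were tested as deposited with limma 3.58.1 in R 4.3.3: 1 model of 3 group means over 9 libraries, with an intensity trend, for the 20145 genes whose mean over libraries reached 1 scaled count, two-sided, with Benjamini-Hochberg adjustment over all genes tested and a threshold of 0.05. Standard errors and 95% intervals are those of the model. The script was tested on simulated data. The genes and lists were chosen with earlier results of these data known, and the rule for naming took the members, up to 4 called genes of each list with the largest changes, partner genes, and the 2 most alike genes of each member. No test of a list was run. The alternatives were 2 filters, 2 pseudocounts, 3 scalings, a fit of 2 groups alone, no trend, a replicate block, voom on the recovered reads and leaving out each library. Exon lengths, overlaps, TGA codon numbers and junction distances come from GENCODE M21 (GRCm38). No genome coordinates from it are given here. Similar copies were sought with BLAST 2.17.0 at 80% identity or more over 100 bases, and none was found beyond genes that overlap a member. An overlap of Txnrd2 is not reported here.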

Additional observations from a re-analysis of the deposited data

How the results depend on the processing

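For the 8 genes, 24 changes were recomputed in 20 alternatives each, all planned. Direction and side of the threshold were kept in 449 of the 480 values, and 15 of the 24 changes kept both throughout. These counts include changes that did not pass to begin with, such as those of Txnrd3 and Selenoh from control to β-CYP. For them, staying above the threshold counts as kept. Direction could not turn in some alternatives, because the log2 change is the same there by construction. These are the filters, the fit of 2 groups, no trend, the replicate block and leaving out a library of the group not compared. Only the side of the threshold could move in them. The number of the 8 genes called from control to β-CYP, 3, was 1 with equal totals and 1 without the intensity trend, and 2 to 3 when a library was left out. From β-CYP to selenite it was 4 to 7 over the alternatives, and against control 5 to 6. Signs turned only for values far from the threshold: Txnrd2 in β-CYP against control, at 0.0026 without control replicate 2 (-0.051 to 0.0026 when a library is left out), and Selenoh from β-CYP to selenite, at 0.094 with equal totals, 0.11 without β-CYP replicate 1 and 0.043 without selenite replicate 3 (-0.15 to 0.11 when a library is left out). The cause was not tested. Replicate numbers are shared between groups, but the libraries were not treated as paired except with the replicate block. Deviations of same-numbered libraries correlated at -0.11 to 0.094 over genes, and those of differently numbered libraries at -0.12 to 0.18. With 3 libraries per group these values cannot exclude a shared batch. With the replicate block, 2, 6 and 5 of the 8 genes were called in the 3 comparisons, and 2956 genes in all from control to β-CYP instead of 3285. Depth limits Selenoh and Txnrd3, whose counting errors are 10.9% to 11.5% and 6.96% to 8.08% of the mean, and intervals cover the spread between these libraries only.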
